A study of Rattus norvegicus with 10 samples.

Results

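A set of 10 genes of glucose uptake, glycolysis and lactate export was followed in cultured rat Sertoli cells given follicle-stimulating hormone (FSH). They were Slc2a1, Slc2a3, Slc16a1, Slc16a3, Hk1, Hk2, Pfkfb4, Pfkl, Ldhb and Txnip. Members were all probe sets whose only gene symbol in the array's probe annotation was 1 of these 10. These are 10 of 4737 genes with such a probe set, measured by 20 of the 8799 probe sets on the array. Of the 20, 3 are array control probe sets placed along the Hk1 transcript and were not tested. The other 17 all passed the intensity filter and were tested. Where a gene has more than 1 tested probe set, probe set 1 is the one with the higher mean over all arrays. Levels are compared between arrays within a probe set only.

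The cells were Sertoli cells of 20 day old rats kept in culture, and total RNA was hybridised to 10 Affymetrix arrays. The 5 groups were untreated cultures at 0 h and cultures given FSH for 2, 4, 8 or 24 h, with 2 arrays each (n = 2), named replicate 1 and replicate 2. The labels give neither a rat strain nor an FSH dose. Whether replicates were grown as separate cultures is not stated, so the p-values reflect the scatter among these arrays alone, and that scatter may be technical. No untreated culture is later than 0 h, so FSH and time in culture cannot be told apart. The label of 1 array at 2 h carries no number, and that array was counted as replicate 1 since the other 2 h array is numbered 2.

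Sertoli cells surround and feed the germ cells of the seminiferous tubule. They take up glucose through carriers of the Slc2a family, phosphorylate it with hexokinase, run it through glycolysis to pyruvate, reduce much of that to lactate and export the lactate through carriers of the Slc16a family. Germ cells use this lactate as fuel, and FSH is known to raise lactate output by Sertoli cells. Txnip, the thioredoxin-interacting protein, is an arrestin-like protein that binds thioredoxin and restrains glucose uptake by promoting removal of glucose carriers from the cell surface.

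Promoters in the rat RefSeq table (assembly GRCr8) were found for 8 of the 10 genes, Hk1 with 2 entries. The 250 bases before the start site are shown for Pfkfb4 and Slc16a1. Pfkfb4 is shown because it was the member whose call at 4 h depended on the replicate block. Slc16a1 is shown because its promoter was the only one of the 9 entries with an E box, the kind of site bound by the glucose-responsive factors that act on the Txnip gene. Capitals mark the E box, and the sequences run 5′ to 3′ on the strand of the gene.
Pfkfb4, chr8:118525916-118526165, plus strand: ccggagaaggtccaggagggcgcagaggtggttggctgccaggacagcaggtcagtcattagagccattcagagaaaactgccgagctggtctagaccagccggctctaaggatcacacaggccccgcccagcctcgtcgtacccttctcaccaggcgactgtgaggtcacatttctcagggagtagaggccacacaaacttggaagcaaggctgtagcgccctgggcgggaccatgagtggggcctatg
Slc16a1, chr2:194812410-194812659, plus strand: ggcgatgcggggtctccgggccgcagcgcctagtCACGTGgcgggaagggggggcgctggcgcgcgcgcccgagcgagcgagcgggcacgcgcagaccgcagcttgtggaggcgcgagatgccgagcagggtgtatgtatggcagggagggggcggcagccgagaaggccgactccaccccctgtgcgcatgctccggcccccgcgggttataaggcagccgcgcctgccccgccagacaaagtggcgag
Both strands were searched for 4 motifs. The E box was read as CACGTG. The full cAMP response element was read as TGACGTCA. Its core, which also lies within the full element, was read as TGACG. The TATA box was read as TATAAA. The E box of Slc16a1 began 216 bases before the start site, and 5.59% of all 33469 promoters of this length held one. Pfkfb4 held none of the 4 motifs. Hk1 held the core in its first entry, 124 bases before the start, and 18.2% of all promoters held it. No member entry held the full element or the TATA box, which 1.59% and 12.9% of all promoters held. These matches describe letters only, and no binding was measured.

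Txnip had the largest change from 0 h of all members, a fall at 2 h of FSH, and was no longer called lower at 4 h. Both of its probe sets fell, by 5.32-fold and 4.47-fold, and they were the only 2 of 4439 tested probe sets called lower at 2 h. An adjusted p under 0.05 (limma, Benjamini-Hochberg adjustment over all tested probe sets) was called a change. Pfkfb4 was 2.39-fold higher at 4 h, a rise that was called only when the replicate number was a block in the model. None of the other 14 tested probe sets was called at any time against 0 h. The remaining glucose and lactate carriers, hexokinases, Pfkl and Ldhb are therefore given by their values.

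**Figure D1:**
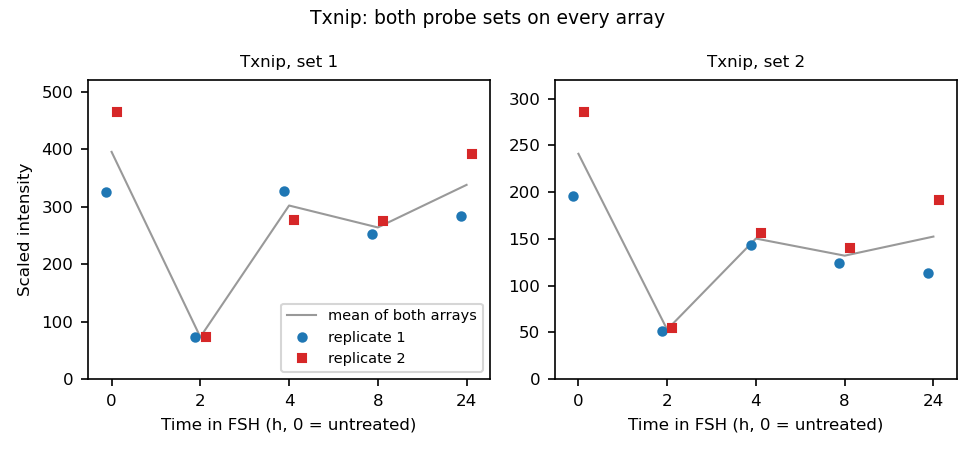
Scaled intensity of both Txnip probe sets on each array at 0, 2, 4, 8 and 24 h of FSH. Points are single arrays by replicate number and the line joins the group means; the 2 h arrays sit between 51.3 and 73.5, below the arrays of every other time in both probe sets.

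Txnip probe set 1 had scaled intensities of 326 and 464 in the untreated replicates 1 and 2. At 2 h of FSH the values were 73.5 and 72.8, at 4 h 327 and 276, at 8 h 252 and 276, and at 24 h 283 and 392. The 2 h arrays were far below all others and nearly equal to each other. The untreated arrays overlapped those of 4 h and 24 h and were above those of 8 h. The mean was 395 ± 97.9 (SD, n = 2) at 0 h and 73.2 ± 0.474 (SD, n = 2) at 2 h. The log2 change at 2 h was -2.41 ± 0.33 (limma standard error, SE, adjusted p = 0.0132), and within replicates 1 and 2 it was -2.15 and -2.67. This was the most negative log2 change of all 4439 probe sets at that time.

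Txnip probe set 2 had 196 and 286 in replicates 1 and 2 at 0 h, 51.3 and 54.7 at 2 h, 144 and 157 at 4 h, 124 and 140 at 8 h, and 113 and 192 at 24 h. Again the 2 h arrays lay far below the rest. The 0 h arrays were above all later ones, by a small margin over 24 h replicate 2. The mean was 241 ± 63.2 (SD, n = 2) at 0 h and 53.0 ± 2.37 (SD, n = 2) at 2 h. The log2 change at 2 h was -2.16 ± 0.35 (limma adjusted p = 0.0268), -1.94 and -2.39 within replicates 1 and 2, and the fifth most negative of 4439. Across the 10 arrays the probe sets correlated at r = 0.959 on the log2 scale, which describes 2 probes on the same RNA and is not a test.

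Of the 17 tested members, 2 were called lower at 2 h, both of Txnip, where 0.0451% of all tested probe sets were called lower. No member was called higher, where 0.631% of all were. With the block the same 2 were called lower, where 0.0676% of all were, and none higher, where 1.15% were. Before adjustment 3 members were under 0.05, both Txnip probe sets among them, where 4.57% of all were. In the blocked fit they were 4, where 7.5% of all were. Leaving out 1 array kept the direction of both probe sets in each of 10 fits. Probe set 1 ranged from -2.67 to -2.15 and was called in 7 of them. Its call was lost without 0 h replicate 2 (adjusted p = 0.0780), 2 h replicate 1 (0.147) or 2 h replicate 2 (0.108). Probe set 2 ranged from -2.43 to -1.89 and was called in 2, those without a 24 h array. Its adjusted p reached 0.266 without 2 h replicate 1, and was 0.0626 on the values as deposited and 0.0863 without the intensity filter. With the replicate number as a block, leaving out 1 array gave -2.62 to -2.20 in probe set 1 and -2.31 to -2.01 in probe set 2. The 0 h and 2 h arrays shared the least deviation of all pairs of times (r = 0.110). Shared deviations thus back the block least in this comparison.

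After 2 h Txnip was higher again. From 2 h to 4 h the log2 difference was 2.04 in probe set 1 (limma adjusted p = 0.463) and 1.5 in probe set 2 (adjusted p = 0.669), so neither was called, and 0% of all tested probe sets were called in either direction. From 2 h to 24 h probe set 1 rose 4.55-fold, a log2 difference of 2.19 (limma adjusted p = 0.0331), and it was the only probe set of 4439 called higher (0.0225%), while 0.293% were called lower and no member was. With the block it was again the only member called, where 0.0676% of all were called higher and 0.743% lower. Without the block, that call was kept in 2 of 10 fits that left out 1 array, those without a 0 h array, and the adjusted p reached 0.324 without 24 h replicate 2. It was also lost on the values as deposited (adjusted p = 0.0609), with quantile normalization (0.0711) and without the intensity filter (0.0804). With the block it was kept in 6 of 10 such fits and lost without either 2 h or either 24 h array (adjusted p up to 0.0923, without 24 h replicate 2). Probe set 2 had a log2 difference of 1.48 between 2 h and 24 h (limma adjusted p = 0.233). With the block its adjusted p was 0.0528.

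Against 0 h, Txnip was below its starting level at 4, 8 and 24 h in both probe sets without being called. Probe set 1 had log2 changes of -0.37, -0.56 and -0.22, and probe set 2 had -0.66, -0.85 and -0.68. The smallest adjusted p among these 6 values was 0.502 (limma), for probe set 2 at 8 h. Limma's F test over the 4 later times called probe set 1 (adjusted p = 0.0328) and not probe set 2 (adjusted p = 0.117), while 0.991% of all tested probe sets were called. With the replicate block both were called (adjusted p = 0.00505 and 0.0170), where 3.22% of all were. Without the block, leaving out any 1 array ended the F test call of probe set 1 (adjusted p from 0.0519 to 0.252), as did the values as deposited (0.0572), quantile normalization (0.0605) and no intensity filter (0.0502).

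The tested genes most like Txnip probe set 1 over the 10 arrays, by Pearson correlation of log2 values among 3711 probe sets with 1 symbol, were Gpx3 (r = 0.897), Lat (r = 0.861) and Jun (r = 0.852). Gpx3 encodes the secreted glutathione peroxidase, Lat an adaptor protein of T cell receptor signalling, and Jun a subunit of the AP-1 transcription factor. Jun had a mean of 69.8 at 0 h, 22.6 at 2 h, 48.4 at 4 h, 54.3 at 8 h and 58.9 at 24 h. Lat went from 62.9 at 0 h to 24.2 at 2 h and 59.2 at 4 h, and Gpx3 from 95.9 to 61.4 and 90.6. All 3 share with Txnip a low at 2 h. They were picked for their likeness to Txnip on these same arrays, so the shared low is not separate evidence.

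**Figure D2:**
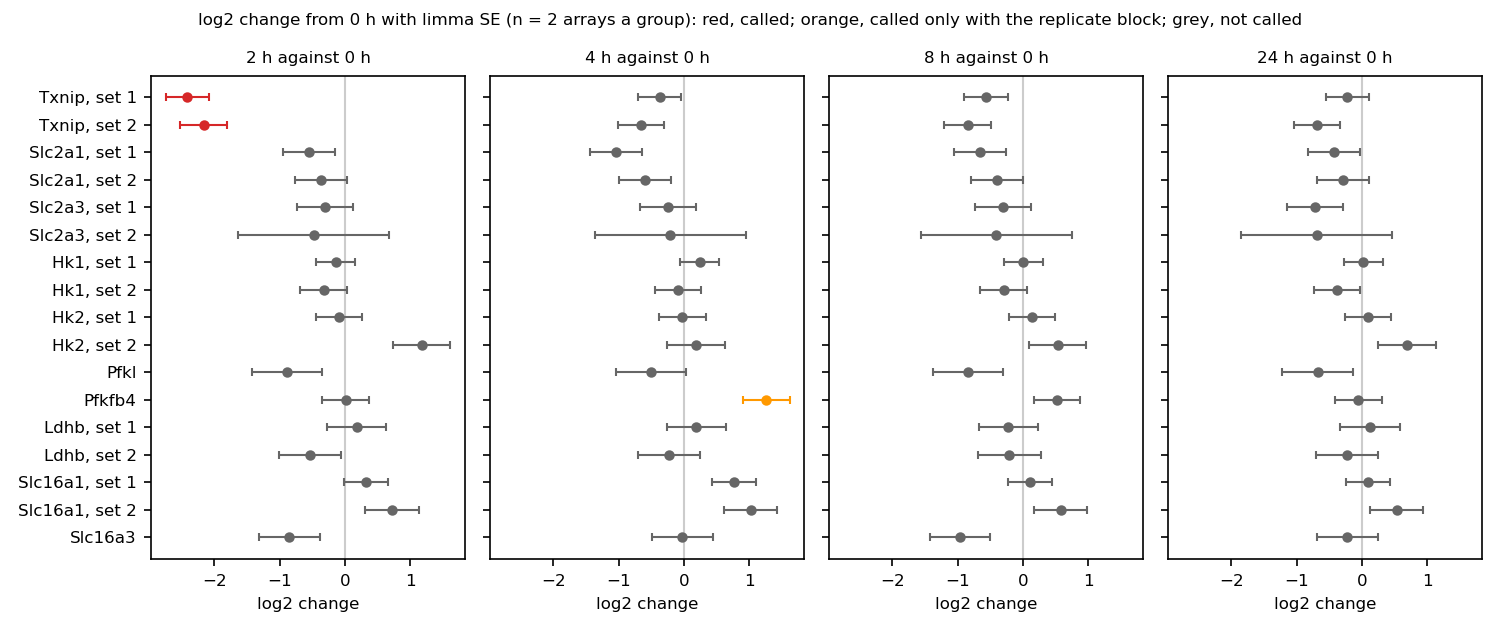
log2 change from 0 h at 2, 4, 8 and 24 h of FSH for the 17 tested member probe sets, with limma standard errors (n = 2 arrays a group). Red marks a call, orange a call made only with the replicate block; the 2 red points are Txnip at 2 h and the orange point is Pfkfb4 at 4 h.

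Pfkfb4 encodes a bifunctional enzyme that sets the level of fructose-2,6-bisphosphate, the main activator of phosphofructokinase. Its probe set had 121 and 104 in replicates 1 and 2 at 0 h, 136 and 93.7 at 2 h, 345 and 209 at 4 h, 178 and 145 at 8 h, and 111 and 105 at 24 h. Both 4 h arrays were above all other arrays, the 8 h arrays came next, and those of 0, 2 and 24 h overlapped. The mean was 112 ± 11.7 (SD, n = 2) at 0 h and 277 ± 96.1 (SD, n = 2) at 4 h. The log2 change at 4 h was 1.26 ± 0.36 (limma adjusted p = 0.228), 1.51 within replicate 1 and 1.00 within replicate 2.

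With the replicate block Pfkfb4 was called at 4 h (limma adjusted p = 0.0424), 1 of 17 members, where 2.64% of all tested probe sets were called higher and 0.315% lower. Without the block 0 of 17 members were called at 4 h, where 0.856% of all were called higher and 0% lower. Before adjustment 4 members were under 0.05, where 7.75% of all were, and 5 in the blocked fit, where 12.2% were. The blocked call of Pfkfb4 was kept in 1 of 10 fits that left out 1 array (adjusted p = 0.0364, without 0 h replicate 2). The other 9 gave adjusted p from 0.0686 to 0.411, the highest without 4 h replicate 1, and without the intensity filter it was 0.0804. At 8 h the log2 change was 0.52 (limma adjusted p = 0.767). The genes most like Pfkfb4 over the 10 arrays were Vps52 (r = 0.926), Zhx2 (r = 0.921) and Adgrl2 (r = 0.915), among 3712 probe sets. Vps52 had a smaller rise, with means of 115 at 0 h, 120 at 2 h, 166 at 4 h, 147 at 8 h and 120 at 24 h. Zhx2, a transcriptional repressor, had means of 37.6, 27.3, 134, 89.4 and 29.3 at these times. Adgrl2, an adhesion G protein-coupled receptor also called latrophilin 2, had 14.3, 25, 133, 91.3 and 22.7. Its 0 h mean was close to the floor of 13.4 used for testing.

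**Figure D3:**
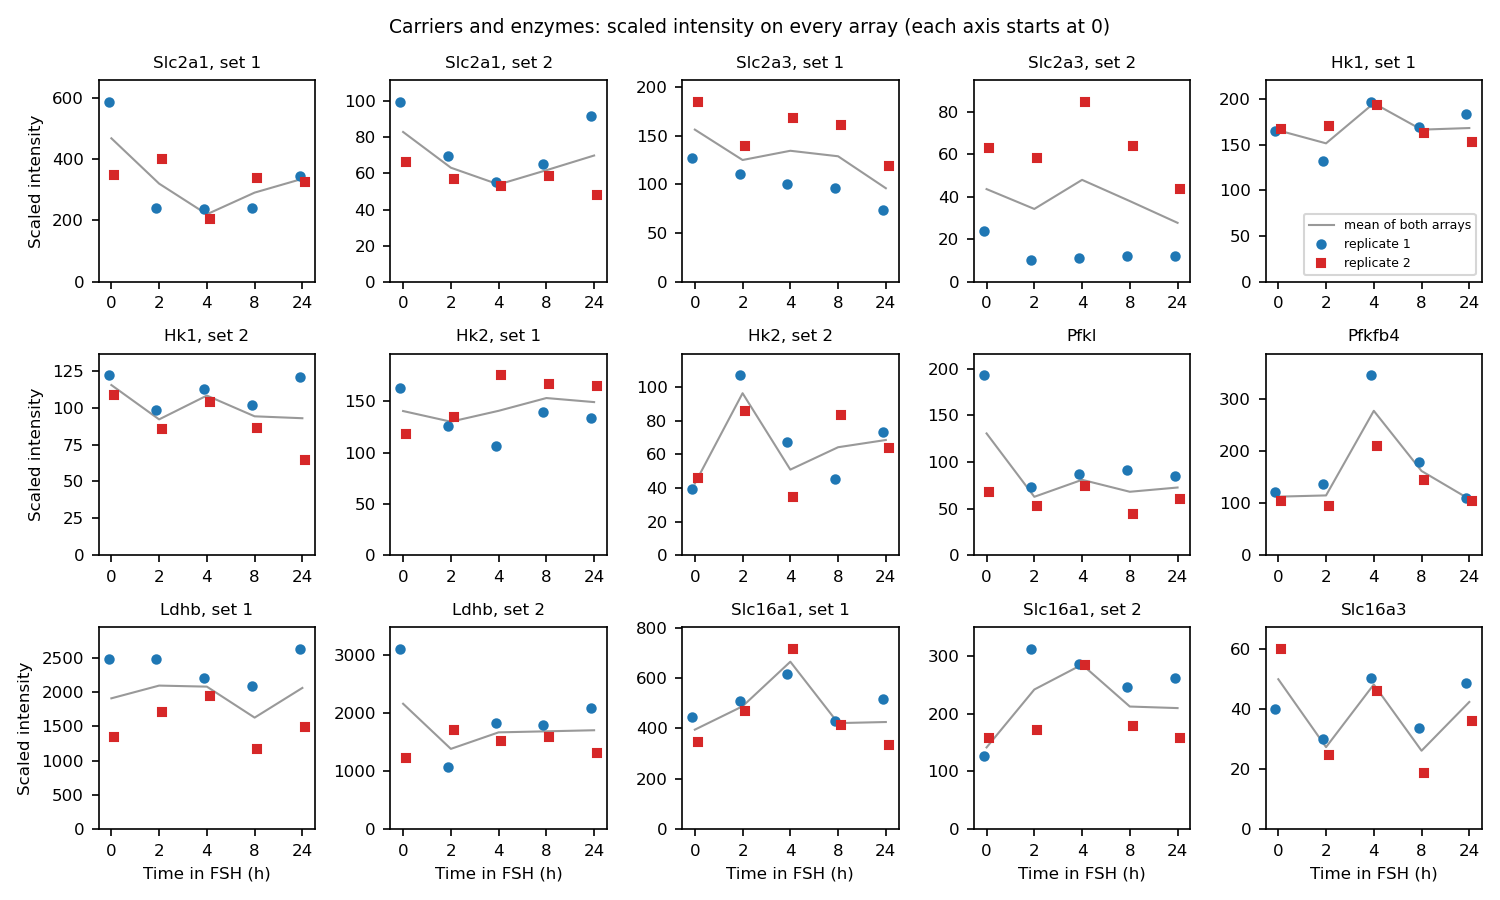
Scaled intensity of the 15 tested probe sets other than Txnip on each array by time in FSH, with times at equal spacing and each axis starting at 0. Points are single arrays by replicate number and lines join group means; Pfkfb4 peaks at 4 h (345 and 209), and the replicate 2 points of Slc2a3 lie above the replicate 1 points at all 5 times.

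Of the glucose carriers, Slc2a1 (Glut1) is the widespread basal carrier and was measured by 2 probe sets. Probe set 1 had 587 and 348 in replicates 1 and 2 at 0 h, 239 and 401 at 2 h, 236 and 203 at 4 h, 241 and 340 at 8 h, and 345 and 326 at 24 h. Both 4 h arrays were below all others, by a small margin in replicate 1, and the untreated replicates were far apart. The log2 change at 4 h was -1.04 ± 0.40 (limma adjusted p = 0.474). Without 0 h replicate 1 it was -0.67. Probe set 2 had 99.9 and 66.2 at 0 h and 55.0 and 52.8 at 4 h, with a log2 change of -0.59 (limma adjusted p = 0.940). Without 0 h replicate 1 it was -0.30.

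Slc16a1 (Mct1) and Slc16a3 (Mct4) carry lactate and pyruvate with a proton across the plasma membrane. Slc16a1 probe set 1 had 445 and 345 in replicates 1 and 2 at 0 h, 507 and 468 at 2 h, 614 and 715 at 4 h, 429 and 412 at 8 h, and 516 and 334 at 24 h. The 4 h arrays were the highest. Probe set 2 had 126 and 157 at 0 h, 312 and 172 at 2 h, 286 and 283 at 4 h, 246 and 178 at 8 h, and 261 and 158 at 24 h. Here the untreated arrays were the lowest, untreated replicate 2 by a small margin. The log2 changes at 4 h were 0.76 ± 0.34 (limma adjusted p = 0.642) and 1.02 ± 0.41 (limma adjusted p = 0.512), and neither was called. With the block, leaving out 0 h replicate 2 called Slc16a1 probe set 2 (1.44, adjusted p = 0.0343) and Slc2a1 probe set 1 (-1.54, adjusted p = 0.0316) at 4 h. With all arrays the blocked adjusted p was 0.196 and 0.243, and without 0 h replicate 1 it was 0.488 and 0.546.

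Slc16a3 was dim. It had 39.9 and 60.1 in replicates 1 and 2 at 0 h, 30.0 and 24.7 at 2 h, 50.4 and 46.1 at 4 h, 33.6 and 18.7 at 8 h, and 48.6 and 36.2 at 24 h. The 2 h and 8 h arrays were below the 0 h arrays, and the 4 h and 24 h arrays overlapped them. The most negative log2 change was -0.97 ± 0.46 at 8 h (limma adjusted p = 0.580).

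The hexokinases Hk1 and Hk2 phosphorylate glucose on entry, Hk1 as the housekeeping form and Hk2 as the form found in insulin-responsive tissues. Hk2 probe set 2 had 39.5 and 45.9 in replicates 1 and 2 at 0 h and 107 and 85.8 at 2 h. The later arrays lay between 34.6 and 83.4. The 2 h arrays were above every other array of that probe set, with a log2 change of 1.17 ± 0.44 (limma adjusted p = 0.797). Hk2 probe set 1 did not share this pattern, with 163 and 118 at 0 h and 126 and 134 at 2 h, a log2 change of -0.09. Hk1 probe set 1 ran from 132 to 197 over all 10 arrays and probe set 2 from 64.7 to 122, and their log2 changes from 0 h lay between -0.38 and 0.24.

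Pfkl, the liver form of phosphofructokinase, had 193 on 0 h replicate 1 and 44.6 to 91.5 on the other 9 arrays. Its log2 changes from 0 h were -0.89, -0.51, -0.84 and -0.68 at 2, 4, 8 and 24 h. Without 0 h replicate 1 they were -0.14, 0.24, -0.10 and 0.07, so the 4 h and 24 h values changed sign. Ldhb, the lactate dehydrogenase subunit that predominates in heart, had 2 probe sets of high intensity, from 1170 to 2628 and from 1066 to 3106. Their log2 changes from 0 h lay between -0.53 and 0.19. Without 0 h replicate 1 all of them were above 0, from 0.22 to 0.63 in probe set 1 and from 0.14 to 0.47 in probe set 2. Of the 17 tested members, 5 had their highest value on 0 h replicate 1, where 17% of all tested probe sets had theirs. The 5 were both probe sets of Slc2a1, Hk1 probe set 2, Pfkl and Ldhb probe set 2.

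As a group the 15 tested probe sets other than Txnip had median log2 changes of -0.31, -0.02, -0.22 and -0.22 at 2, 4, 8 and 24 h. The medians over all 4439 probe sets were -0.02, -0.03, -0.02 and 0.02. Without 0 h replicate 1 the same 15 had medians of -0.07, 0.21, -0.00 and 0.05, and all probe sets had 0.02, 0.01, 0.01 and 0.04. Without 0 h replicate 2 the 15 had -0.27, 0.03, -0.09 and -0.16, and all probe sets had -0.07, -0.06, -0.05 and -0.01. The medians at 2, 8 and 24 h were thus closer to 0 without either 0 h array, more so without replicate 1. The 4 h median moved away from 0 without replicate 1. Single later arrays also moved them, to -0.14 at 2 h without 2 h replicate 1, to -0.02 and -0.12 at 8 h without 8 h replicate 1 or 2, and to 0.07 at 24 h without 24 h replicate 2. At 8 h 0 of 17 members were called (0.743% of all higher, 0.0225% lower) and 1 was under 0.05 before adjustment (9.3% of all). At 24 h 0 were called (0% of all in either direction) and 0 were under 0.05 before adjustment (4.6% of all). In the blocked fit 2 were under 0.05 before adjustment at 8 h (15.5% of all) and 2 at 24 h (9.26% of all). Again none was called (2.3% of all higher and 0.383% lower at 8 h, 0.0901% and 0% at 24 h). Between 4 h and 8 h and between 8 h and 24 h 0 members were called in either fit. From 8 h to 24 h 0.225% of all were called lower and 0% higher, and with the block 0.924% and 0.225%. From 4 h to 8 h 0% were called either way, and with the block 0.0901% were lower.

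**Figure D4:**
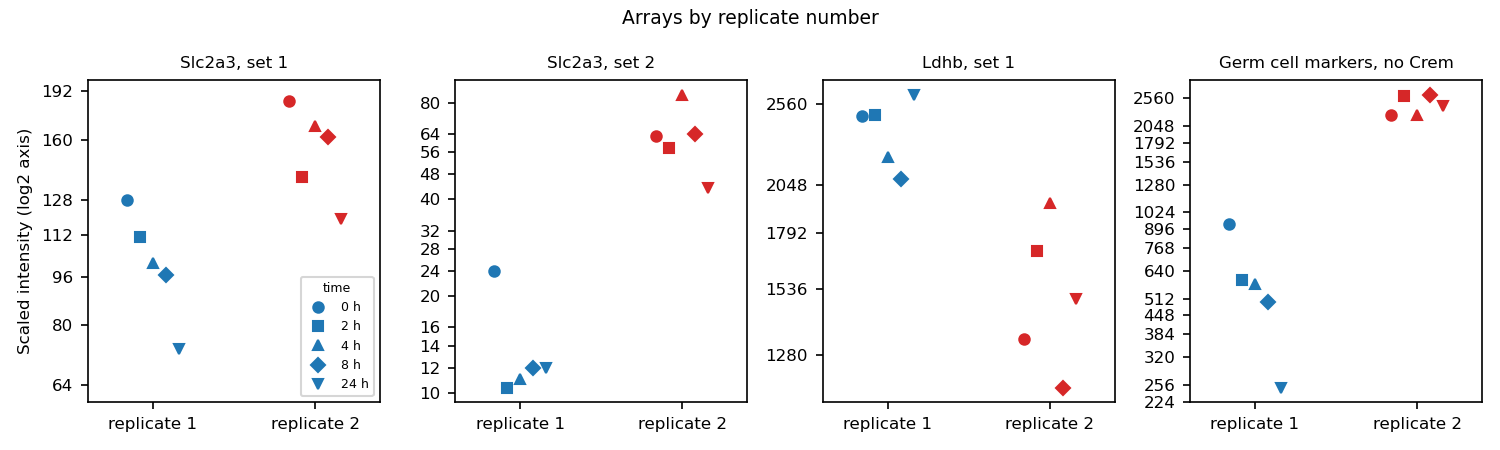
Scaled intensity on log2 axes of both Slc2a3 probe sets, Ldhb probe set 1 and the sum of 12 germ cell marker genes without Crem, by replicate number, with 1 point per array and the marker shape giving the time. Replicate 2 lies above replicate 1 at all 5 times for Slc2a3 and the germ cell sum, and below it for Ldhb.

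Probe sets of Slc2a3 and Ldhb were called by replicate number, as were 6.53% of all tested probe sets higher and 8.65% lower in replicate 2. Slc2a3 (Glut3), a high-affinity glucose carrier also found in germ cells, had in probe set 1 128 and 185 in replicates 1 and 2 at 0 h, 111 and 139 at 2 h, 101 and 168 at 4 h, 96.4 and 161 at 8 h, and 73.2 and 119 at 24 h. Replicate 2 was higher at each of the 5 times. Probe set 2 had 24.0 and 63.1 at 0 h, 10.4 and 58.0 at 2 h, 11.1 and 84.7 at 4 h, 12 and 63.8 at 8 h, and 12 and 43.4 at 24 h. The replicate 1 arrays after 0 h, 4 arrays in all, were under the floor of 13.4. In the fit with time and replicate number, replicate 2 exceeded replicate 1 by a log2 difference of 0.61 in probe set 1 (limma adjusted p = 0.0386) and 2.02 in probe set 2 (limma adjusted p = 0.00301), the latter with the floor in place of the 4 lowest values. Against 0 h the log2 changes of Slc2a3 were between -0.72 and -0.21 and none was called. Those of probe set 2 use the floor in replicate 1 at all 4 later times. Within replicate 2, probe set 2 was above its 0 h value at 4 h and 8 h and below it at 2 h and 24 h. Slc2a3 probe set 1 was lowest at 24 h within each replicate.

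Ldhb probe set 1 had 2479 and 1338 in replicates 1 and 2 at 0 h, 2483 and 1706 at 2 h, 2211 and 1948 at 4 h, 2084 and 1170 at 8 h, and 2628 and 1493 at 24 h. Every replicate 1 array was above every replicate 2 array. The log2 difference, replicate 2 minus replicate 1, was -0.65 (limma adjusted p = 0.0356). Probe set 2 had -0.36 (limma adjusted p = 0.405) and was not called. So 2 of 17 members were called higher in replicate 2, where 6.53% of all tested probe sets were, and 1 lower, where 8.65% were. Leaving out 1 array kept the call of Slc2a3 probe set 2 in 10 of 10 fits. Slc2a3 probe set 1 and Ldhb probe set 1 were each called in 2 of 10, those without a 0 h array, and their adjusted p reached 0.141 and 0.146. The Ldhb call was also lost with quantile normalization (-0.41, adjusted p = 0.0694) and without the intensity filter (0.0891).

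Germ cell markers moved with the replicate number too. Of 17 listed genes, Slc2a3 left out, 13 were on the array, and their summed intensity was 363 to 1843 on replicate 1 arrays and 2332 to 3484 on replicate 2 arrays. Without Crem, which Sertoli cells also express and which reached 1268, the other 12 summed to 250.4 to 935 and 2240.4 to 2634. Ldhc, Hspa2, Pdha2 and Ddx4 were called higher in replicate 2, 4 of 8 tested and none lower, where 6.53% of all probe sets were higher and 8.65% lower. The spermatid genes Tnp2 and Odf1 were under the floor on all 10 arrays. Of the same list, Tnp1 was under it on 2 arrays, and Prm2 and Acr on 0, with highest values of 39.6, 59.5 and 66.9. Prm2 (log2 difference 0.63) and Acr (0.18) were tested and not called by replicate number. Of 8 tested Sertoli markers, Fshr, Wt1, Gata4 and Inha were called lower in replicate 2, 4 of 8 against the same 8.65%, and the 9 on the array summed to 11991 to 16645 in replicate 1 and 8775 to 12490 in replicate 2. Most of that sum was Clu, with 9243 to 13782 in replicate 1 and 6779 to 9795 in replicate 2. Clu (log2 difference -0.51) and Amh (-0.50) were lower in replicate 2 without being called. Shbg (0.09) and Rhox5 (0.03) were not lower. Sertoli markers were thus present on all arrays. The part of these markers in the Slc2a3 and Ldhb differences was not tested, and in bulk RNA fewer cells of a type and less RNA per cell cannot be told apart. Peritubular myoid markers summed to 773 to 1492 on 9 arrays and to 3445 on 24 h replicate 1. Beside the Txnip fall, the germ cell sum without Crem was 935 and 2242 in replicates 1 and 2 at 0 h and 595 and 2608 at 2 h.

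The 3 control probe sets along Hk1 give a measure of RNA quality. The ratio of the 3′ to the 5′ probe set was 1.60 to 2.68 on replicate 1 arrays and 2.58 to 11.2 on replicate 2 arrays. The 5′ probe set was under the floor on 1 of 5 replicate 1 arrays and 4 of 5 replicate 2 arrays, so the higher ratios rest on 5′ values that are not above it. The part of this in the differences by replicate number was not tested. Txnip was not called by replicate number, though its probe set 2 was higher in replicate 2 at 5 of 5 times. Its fall at 2 h was seen within both numbers. The part of RNA quality or germ cell RNA in that fall was not tested.

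**Figure D5:**
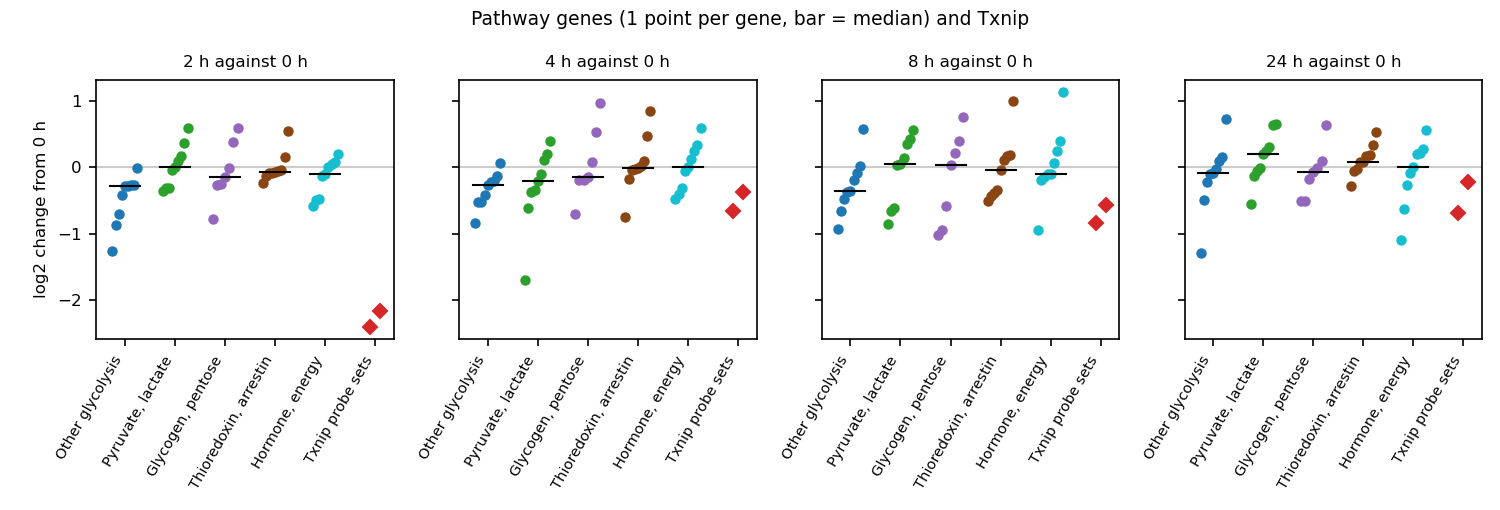
log2 change from 0 h at 2, 4, 8 and 24 h for the 43 tested pathway genes in 5 lists (1 point per gene, bar at the median) and the 2 Txnip probe sets. The list medians lie between -0.36 and 0.19 at all times, while Txnip lies at -2.41 and -2.16 at 2 h.

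The wider pathway was read through 5 lists of 83 genes, of which 60 had a probe set with that single symbol and 43 were tested on their brightest probe set. At 2, 4, 8 and 24 h 0 of 43 were called in either direction, with or without the replicate block. Before adjustment p was under 0.05 for 1, 2, 3 and 0 of them, and for 1, 4, 3 and 3 in the blocked fit. Of all tested probe sets, 0.631%, 0.856%, 0.743% and 0% were called higher and 0.0451%, 0%, 0.0225% and 0% lower at these times, and 4.57%, 7.75%, 9.3% and 4.6% were under 0.05 before adjustment. In the blocked fit the last shares were 7.5%, 12.2%, 15.5% and 9.26%. Other glycolysis genes (9 tested of 21) had median log2 changes of -0.28, -0.28, -0.36 and -0.09 at 2, 4, 8 and 24 h. Their untreated replicates 1 and 2 were often far apart. Pkm had 5464 and 2100, Eno1 3401 and 1647, Aldoa 2664 and 1465, and Pgam1 3292 and 1621. Aldoc and Pgk1 were also higher in untreated replicate 1, while Pfkm, Pfkp and Pfkfb1 were lower there. How far these medians rest on 0 h replicate 1 was not tested. Genes of pyruvate and lactate fate (9 of 18) had 0.01, -0.21, 0.05 and 0.19. The lactate dehydrogenase gene Ldha of that list had no probe set with that single symbol and was not tested. Gapdh of the glycolysis list was not tested either.

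The genes with the lowest and the highest change from 0 h in each list are given as values, since none was called. Among other glycolysis genes these were Aldoc and Pgk1, both at 24 h. Aldoc, the brain form of aldolase, had 118 and 104 in replicates 1 and 2 at 0 h and 50.3 and 40.7 at 24 h, a log2 change of -1.29 (limma adjusted p = 0.996). Pgk1, phosphoglycerate kinase, had 746 and 564 at 0 h and 1071 and 1069 at 24 h, a log2 change of 0.72 (limma adjusted p = 0.996). The 24 h arrays lay beyond both untreated ones in each. The fructose carrier Slc2a5 had 103 and 54.4 at 0 h and 13.1 and 39.0 at 4 h, a log2 change of -1.71 (limma adjusted p = 0.355). The lower 4 h value was under the floor of 13.4, so this change uses the floor on 1 of its 4 h arrays. Both 4 h arrays of Slc2a5 were below both 0 h arrays, and both 24 h arrays were above them. Emb, embigin, a membrane partner of monocarboxylate carriers, had 269 and 218 at 0 h and 609 and 238 at 24 h, a log2 change of 0.65 (limma adjusted p = 0.996).

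The thioredoxin and arrestin-domain list (9 tested of 16) was tested through mitochondrial thioredoxin (Txn2), the reductases Txnrd1 and Txnrd2, the peroxiredoxins Prdx1, Prdx2 and Prdx3, the arrestin Arrb2 and the E-box factors Usf1 and Usf2. It had medians of -0.08, -0.01, -0.04 and 0.09. Its member Txnrd1, the cytosolic thioredoxin reductase, had 295 and 327 in replicates 1 and 2 at 0 h, 496 and 414 at 2 h, 636 and 487 at 4 h, 746 and 511 at 8 h, and 419 and 365 at 24 h. All later arrays were above both untreated ones, and the log2 change at 8 h was 0.99 (limma adjusted p = 0.344, 0.0994 with the block). Usf1, an E-box factor, had 760 and 386 at 0 h and 364 and 287 at 4 h, a log2 change of -0.75 (limma adjusted p = 0.885). Hormone and energy sensing genes (9 of 14) had medians of -0.10, -0.00, -0.10 and 0.00. Hif1a, the oxygen-regulated factor that drives many glycolytic genes, had 46.8 and 75.3 at 0 h and 152 and 112 at 8 h, a log2 change of 1.14 (limma adjusted p = 0.461). Irs2, an adaptor of the insulin receptor, had 48.0 and 48.5 at 0 h and 20.9 and 24.4 at 24 h, a log2 change of -1.10 (limma adjusted p = 0.996). Glycogen and pentose phosphate genes (7 of 14) had medians of -0.15, -0.15, 0.03 and -0.07. Pgm1, phosphoglucomutase, had 174 and 165 at 0 h and 92.0 and 76.5 at 8 h, a log2 change of -1.01 (limma adjusted p = 0.418). Gsk3b, the glycogen synthase kinase, had 35.5 and 39.8 at 0 h and 63.5 and 85.3 at 4 h, a log2 change of 0.97 (limma adjusted p = 0.664).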

How the data were processed

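The deposited values were intensities, 1 per probe set and array on a linear scale. How the authors made these intensities is not given in the sources used here. Each array's mean without its extremes was 125.2 to 125.27, so the arrays had been brought to about 1 level. Gene symbols came from the platform annotation.

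Arrays were divided by 0.911 to 1.13 to share a 75th percentile of 107. Intensities in the text are on this scale without a floor. For testing, values under 13.4 (that percentile divided by 8) were set to it and log2 was taken. Of 8799 probe sets, 59 array controls were left out, and 4439 of the other 8740 had a mean of at least 31.9, the pooled median, and were tested. limma 3.58.1 in R 4.3.3 (lmFit, eBayes with intensity trend) fitted 1 mean per group (5 residual degrees of freedom), with Benjamini-Hochberg adjustment within each comparison. The script was tested on simulated data.

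Same-numbered replicates deviated together in 10 of 10 pairs of times (r from 0.110 to 0.698), so arrays of the same number shared differences. The pairs of times with 0 h were the weakest (r from 0.110 to 0.417). The numbers come from the labels, apart from the 2 h array whose number was inferred. The labels do not say whether a number stands for a shared culture or batch, so the block rests on these same data. A second fit added the replicate number as a block, which left 4 residual degrees of freedom, and its values stand beside results that it changes.

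All 10 genes were named whether called or not, with full statistics for Txnip and for members called against 0 h in either fit. Likeness was the highest Pearson r over the 10 arrays. Members, lists, tests and this rule were chosen with earlier results of these data known. Alternatives were values as deposited, quantile normalization, floors at the percentile divided by 4 or 16, no filter, no intensity trend, the block, and leaving out each array. Blocked fits without the filter or without 1 array, medians without 1 array and the germ cell sum without Crem were added after seeing the data. The precision is limited by the number of arrays. Promoters of Txnip and Slc2a3 are not printed.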

Additional observations from a re-analysis of the deposited data

Results flagged for a closer look

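Txnip probe set 1 differed between 2 h and 24 h of FSH in its change from 0 h. It was -2.41 on the log2 scale at 2 h and -0.22 at 24 h, and the difference, tested directly, was 2.19 (limma adjusted p = 0.0331, n = 2 arrays a group). Both 24 h arrays were above both 2 h arrays. Over the 7 other settings tried with all arrays the adjusted p ran from 0.00505 to 0.0804. Probe set 2 had a difference of 1.48 (limma adjusted p = 0.233). The comparisons with 0 h share their control arrays, but this difference does not use them.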

How the results depend on the processing

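No called member value changed sign under any alternative tried. Changes from 0 h that were not called did: of the 68 changes of the 17 tested members over 4 times, leaving out 1 array turned the sign of 0 to 16, with 12 without 0 h replicate 1 and 16 without 0 h replicate 2. The number of member probe sets called at 2 h against 0 h was 2, and 1 with values as deposited or without the filter. Leaving out 1 array gave 0 to 2. At 4 h it was 0, and 1 with the replicate block. Between 2 h and 24 h it was 1, and 0 with values as deposited, with quantile normalization or without the filter, and leaving out 1 array gave 0 to 1. The F test called 1, or 0 with values as deposited, with quantile normalization or without the filter, 2 with the block, and 0 in every fit that left out 1 array. The cause was not tested.

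With the replicate block, leaving out 1 array moved the count from 2 to between 1 and 2 at 2 h, from 1 to between 0 and 3 at 4 h, from 0 to between 0 and 2 between 2 h and 4 h, from 1 to between 0 and 2 between 2 h and 24 h, and from 2 to between 0 and 3 in the F test. The block without the filter gave 0 at 4 h, between 2 h and 24 h, and in the F test. By replicate number 3 were called, and 1 to 3 when 1 array was left out. The block changed no other member call. With 2 arrays a group, a call rests on few values.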
